A study of Mus musculus with 21 samples.

Results

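The genes described here encode the subunits of the proteasome, its activators and the chaperones that assemble it. They were taken by symbol, as every mouse gene named Psma, Psmb, Psmc, Psmd, Psme, Psmf or Psmg followed by a number that reached at least 1 TPM (a share of all transcripts in a library, corrected for gene length) in at least 3 libraries. Of 48 such symbols among the 23415 genes of the table, 47 passed. The interferon-inducible genes Psmb8, Psmb9, Psmb10, Psme1 and Psme2 are given apart, which leaves 42 other members. Psme4, which encodes the nuclear activator PA200, lay just inside the minimum, with 1 TPM or more in 4 libraries and a mean of 0.825 TPM. Psma8, the alpha subunit of germ cells, lay just outside it, with a highest value of 0.88 TPM.

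The proteasome is the protease that degrades ubiquitin-tagged proteins in every cell. Its barrel-shaped 20S core is made of outer rings of alpha subunits and inner rings of beta subunits, which hold the catalytic sites, and the 19S cap recognises, unfolds and admits substrates with the help of ATPases. Interferon gamma induces the catalytic subunits Psmb8, Psmb9 and Psmb10, which take the places of Psmb5, Psmb6 and Psmb7 in newly assembled cores, and the PA28 activator formed by Psme1 and Psme2. Cores with the inducible subunits are called immunoproteasomes, are common in lymphocytes and change which peptides are made for display on MHC class I.

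The study measured RNA in mouse CD4 T cells driven toward different helper types, and sorted by an eGFP reporter of the IL-23 receptor gene Il23r. Naive cells (CD44 low, CD62L high, CD25 negative) from spleen and lymph nodes were kept for 5 days on plate-bound antibodies against CD3 and CD28 with cytokines. All groups came from mice heterozygous for the reporter allele, which makes eGFP and no working receptor, so cells of every group carried 1 working copy of Il23r. Libraries were made with a modified SMART-Seq2 protocol, a full-length method for small numbers of cells. The groups, each with 3 libraries, were as follows. IL-12+IL-21 (20 ng/ml each) had GFPpos and GFPneg cells. IL-12 alone (20 ng/ml) had GFPneg cells. IL-1b+IL-6+IL-23 (20, 25 and 20 ng/ml) had GFPpos and GFPneg cells, as had TGFb+IL-6 (2 and 25 ng/ml).

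Only libraries with at least 7000 genes at 1 TPM or more were used, which kept 16 of 21. They were 3 of IL-12+IL-21 GFPpos, 2 of IL-12+IL-21 GFPneg, 2 of IL-12 GFPneg, 3 each of IL-1b+IL-6+IL-23 GFPpos and GFPneg, 1 of TGFb+IL-6 GFPpos and 2 of TGFb+IL-6 GFPneg. The libraries used held 7522 to 9248 such genes, and the 5 left out held 190 to 5608. TPM keeps no read depth, so no counting interval can be given. Ribosomal protein genes took 31.1% to 42.0% of the TPM in the libraries used. The 6 CD4 T cell markers summed to 1212 to 2324 TPM, B cell, NK cell and gamma-delta T cell markers to less than 1 TPM each, myeloid markers to at most 3.15 TPM and CD8 T cell markers to at most 17.5 TPM. Erythroid and neutrophil markers summed to 2.43 to 42.6 TPM, most of it Ly6g. They were at 20.6 to 42.6 TPM in IL-12 GFPneg, 12.4 to 22.5 TPM in TGFb+IL-6 GFPneg and 6.18 to 6.51 TPM in IL-12+IL-21 GFPneg. In bulk samples, fewer cells with a transcript and less of it per cell cannot be told apart.

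The promoter sequences show what lies just before the start of the inducible genes, of 2 constitutive counterparts, and of Psma6 and Psmd8, the other members with the most recurrent differences between cultures. They are RefSeq sequences of GRCm38.p6, read in the direction of the gene, and each ends at the base before the start unless stated. Capitals mark matches to 4 motifs searched on both strands: GAAA, any 2 bases and GAAA (core of the interferon-stimulated response element), TTCNNNGAA (interferon gamma activated site), TGACNNNGC (core of the antioxidant response element, which the factor encoded by Nfe2l1 also reads) and CCAAT (the CCAAT box). 
Psmb8, chr17:34198075-34198194, plus strand: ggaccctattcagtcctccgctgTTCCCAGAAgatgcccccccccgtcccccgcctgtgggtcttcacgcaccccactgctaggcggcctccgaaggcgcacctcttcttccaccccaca
Psmb9, chr17:34187331-34187450, minus strand: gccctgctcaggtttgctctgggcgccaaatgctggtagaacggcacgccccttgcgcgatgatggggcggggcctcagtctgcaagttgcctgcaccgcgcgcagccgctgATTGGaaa
Psmb10, chr8:105938393-105938512, minus strand: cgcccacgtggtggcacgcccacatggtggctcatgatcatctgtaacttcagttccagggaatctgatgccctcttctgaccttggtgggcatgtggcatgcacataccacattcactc
Psme1, chr14:55578394-55578513, plus strand, ending 20 bases past the start: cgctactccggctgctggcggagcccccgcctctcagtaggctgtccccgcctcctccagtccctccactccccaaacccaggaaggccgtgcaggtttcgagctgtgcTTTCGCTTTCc
Psme2, chr14:55591102-55591221, minus strand: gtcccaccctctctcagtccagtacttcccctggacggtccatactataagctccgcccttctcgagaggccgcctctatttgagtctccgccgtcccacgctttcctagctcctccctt
Psmb5, chr14:54617996-54618115, minus strand: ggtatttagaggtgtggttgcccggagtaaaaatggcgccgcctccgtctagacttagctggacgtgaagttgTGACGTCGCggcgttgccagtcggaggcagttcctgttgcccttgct
Psmb6, chr11:70525237-70525356, plus strand: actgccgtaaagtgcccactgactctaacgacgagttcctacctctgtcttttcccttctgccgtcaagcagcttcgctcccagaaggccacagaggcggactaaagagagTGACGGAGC
Psma6, chr12:55384102-55384221, plus strand, first of 2 RefSeq starts: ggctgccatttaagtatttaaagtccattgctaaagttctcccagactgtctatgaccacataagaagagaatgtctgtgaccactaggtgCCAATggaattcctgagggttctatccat
Psma6, chr12:55398705-55398824, plus strand, second RefSeq start: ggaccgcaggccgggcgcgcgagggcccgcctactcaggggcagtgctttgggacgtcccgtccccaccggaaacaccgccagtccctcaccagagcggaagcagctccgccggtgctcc
Psmd8, chr7:29180674-29180793, minus strand: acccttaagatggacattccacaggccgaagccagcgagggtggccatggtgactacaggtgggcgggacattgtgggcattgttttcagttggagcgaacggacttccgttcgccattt

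In windows from 250 bases before to 50 after the start, 40 of the 47 members had a RefSeq promoter, including all 5 inducible genes. The interferon-stimulated response element core was found in 1 of the 5 inducible windows, that of Psme1, and in 4 of 35 others (Psmb3, Psmd4, Psmd9 and Psmg4), against 3.44% of 32851 promoters of mouse genes. TTCNNNGAA was found in the window of Psmb8 and in 2 others (Psmd2 and Psmg1), against 8.30% of all promoters. TGACNNNGC was found in none of the inducible windows and in 6 others (Psmb5, Psmb6, Psmc6, Psmd9, Psmd12 and Psme4), against 12.4% of all promoters. CCAAT was found in the window of Psmb9 and in 13 others, Psma6 among them, against 37.4% of all promoters. These are matches of letters in a fixed window and say nothing of binding.

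Levels differed between the structural classes, whose ranges overlapped. Over the 16 libraries, the alpha ring ran from a mean of 198 TPM for Psma5 to 529 TPM for Psma2, and the constitutive beta ring from 179 TPM for Psmb7 to 663 TPM for Psmb1. The inducible genes ran from 50.6 TPM for Psmb10 to 989.9 TPM for Psmb8, which was the most abundant of all 47 members. The 19S ATPases ran from 82.2 TPM for Psmc6 to 190.04 TPM for Psmc5. The other 19S subunits ran from 33.2 TPM for Psmd3 to 340.05 TPM for Psmd8. The medians of these classes were 286 TPM for the alpha ring, 435.5 for the constitutive beta ring, 598 for the inducible genes, 118 for the ATPases and 112 for the other 19S subunits. Assembly chaperones had medians of 24.4 and 26.6 TPM, at 11.5 to 26.1 TPM for the 19S chaperones (Psmd9 to Psmd5) and 15.4 to 41.7 TPM for the 20S chaperones (Psmg1 to Psmg4). Psmf1, which encodes an inhibitor of the core, averaged 14.5 TPM, and Psmb11, the beta subunit of the thymus cortex, 7.90 TPM. In IL-12 GFPneg replicate 1 and TGFb+IL-6 GFPpos replicate 2, both left out, Psmb11 was at 10.2 and 17.95 TPM. Psma1 fell there to 7.20 and 24.4 TPM. In the other libraries left out Psmb11 was at 0 or 49.7 TPM. Whether these reads belong to Psmb11 was not tested.

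The members together took 0.80% to 1.29% of the TPM of a library. The 5 inducible genes summed to 3367 to 3543 TPM in GFPpos libraries of IL-12+IL-21, 3508 to 3571 in IL-12+IL-21 GFPneg, 3019 to 3251 in IL-12 GFPneg, 1995 to 2402 in the GFPpos sort of IL-1b+IL-6+IL-23, 2441 to 2505 in the GFPneg sort of IL-1b+IL-6+IL-23, 2093 in the TGFb+IL-6 GFPpos library and 1661 to 2133 in TGFb+IL-6 GFPneg. Every library with IL-12 was thus above every library without it. The 42 others did not follow this order: they summed to 9425 to 9902 TPM in IL-12 GFPneg, 7012 to 8212 in both sorts of IL-12+IL-21, 7163 to 8772 in both sorts of IL-1b+IL-6+IL-23, and 6337 to 6895 in the TGFb+IL-6 libraries. On this unscaled measure, 27 of the 42 had their highest group mean in IL-12 GFPneg. The lowest group mean was in TGFb+IL-6 GFPneg for 22 and in the lone TGFb+IL-6 GFPpos library for 8. The share of all genes with their extremes in these groups was not counted. The median log2 change of all genes over TGFb+IL-6 GFPneg was 0.21 for IL-12+IL-21 GFPneg and 0.23 for IL-1b+IL-6+IL-23 GFPneg. From the lowest to the highest group mean (TPM + 1), the inducible genes spanned a median of 2.09 times (1.60 to 3.74), the others 1.70 times (1.14 to 3.94) and all 9592 genes tested 2.01 times.

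The order of the groups depended in part on the scaling and on the libraries kept. With median-ratio scaling, which divides each library by its median ratio to a typical library, the inducible genes averaged 2908.5 to 3614.5 in the 3 groups with IL-12 and 1887 to 2521 in the others, but TGFb+IL-6 GFPneg (2423) then stood above the GFPpos sort of IL-1b+IL-6+IL-23 (2165.8). The sum of the 42 others turned as well, at 8393 in TGFb+IL-6 GFPneg against 6276 in the GFPpos sort of IL-12+IL-21. With all 21 libraries the inducible genes averaged 2364 TPM in IL-12 GFPneg, below the 3 GFPneg libraries of IL-1b+IL-6+IL-23.

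**Figure D1:**
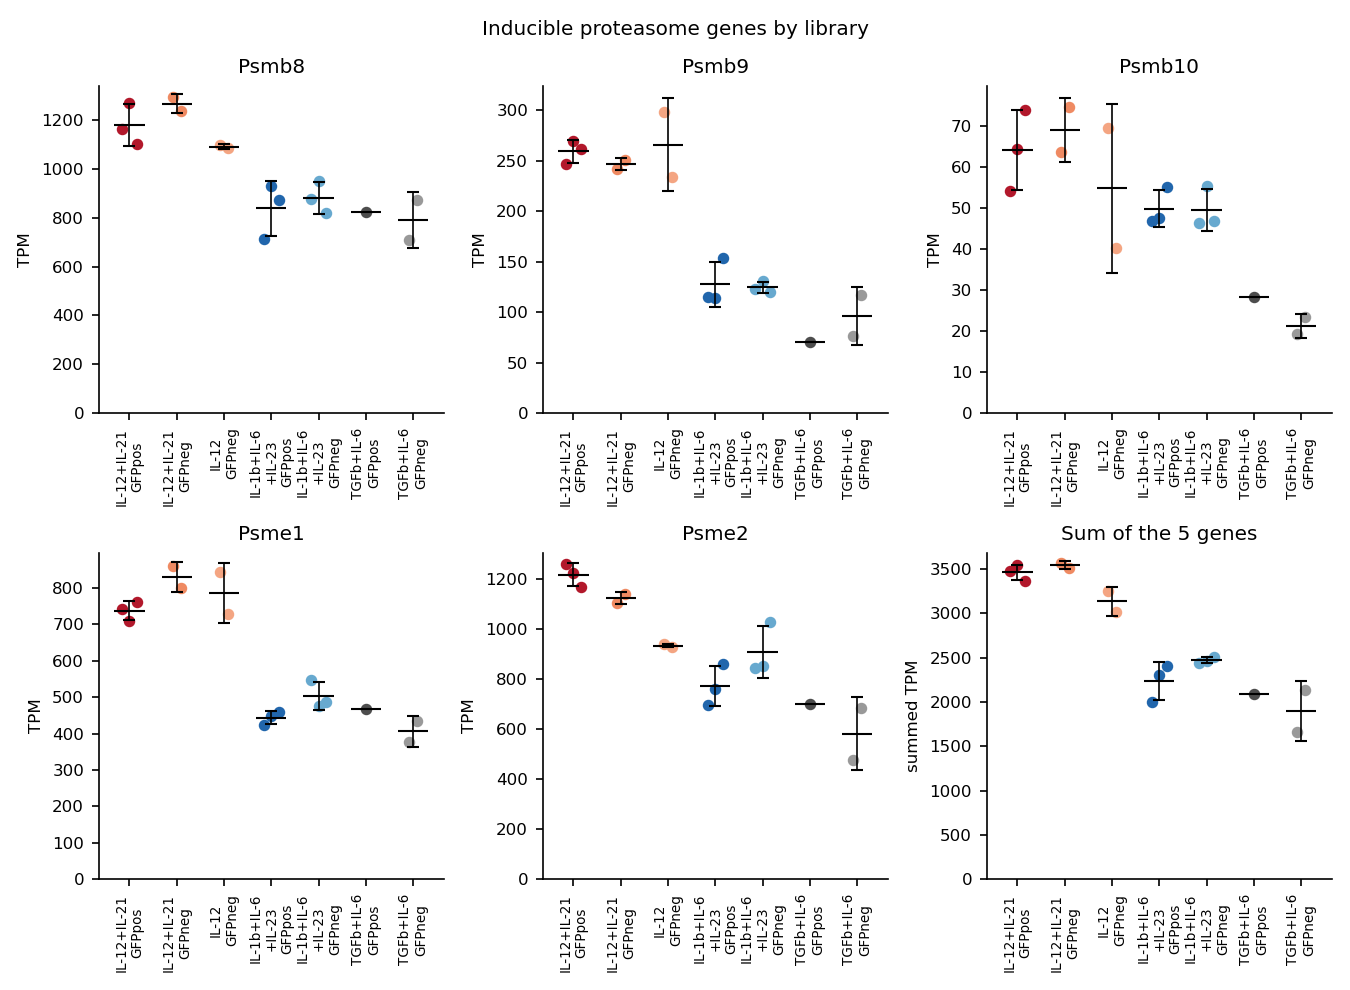
TPM of the 5 inducible genes and of their sum in each library used, by group (points, libraries; bars, mean ± SD where a group has at least 2 libraries). The sum lies between 3019 and 3571 TPM in the libraries with IL-12 and between 1661 and 2505 TPM in the others.

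The first comparison set IL-12+IL-21 against IL-1b+IL-6+IL-23 cells of both sorts, 5 libraries against 6, and asks how a Th1-type and a Th17-type culture differ. GFPpos and GFPneg libraries of a replicate number may come from the same culture, so these libraries may not all be independent. The genes of the catalytic subunits Psmb8 and Psmb9 and of both PA28 subunits were higher with IL-12+IL-21, Psmb9 the most, at 2.02 times the mean TPM. Among the 42 others, 0 passed as higher and 2 as lower, the alpha subunit gene Psma6, at 0.326 times, and the 19S gene Psmd8, at 0.659 times. Of the 9592 genes tested, 8.55% passed (5.80% higher, 2.75% lower), by limma with Benjamini-Hochberg adjustment over all genes tested and a threshold of 0.05 on the adjusted p. So 4 of 5 inducible genes passed as higher, with a median log2 change of 0.51, against 0.03 for the 42 others and 0.07 for all genes.

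Psmb9 encodes the subunit that replaces the caspase-like Psmb6, and lies on chromosome 17 (34181987 to 34187764, minus strand, GRCm38, GENCODE M21) across from Tap1, whose span it overlaps. It had 247, 269.6 and 262 TPM in the GFPpos sort of IL-12+IL-21 and 242 and 251 TPM in IL-12+IL-21 GFPneg libraries, against 115, 114 and 154 TPM in the GFPpos sort of IL-1b+IL-6+IL-23 and 123, 130.5 and 119.9 TPM in IL-1b+IL-6+IL-23 GFPneg libraries. The groups did not overlap, and the sorts lay close together within each culture. Of the inducible genes 4 had no overlap in the higher direction, as had 4.05% of all genes. Of the others 1 had none in that direction, Psmb6, at 364 to 390 against 264 to 347 TPM, which did not pass. In the lower direction 2 of the others had none, as had 1.46% of all genes. The log2 change was 1.01 ± 0.13 (SE; limma, adjusted p = 6.39e-05), with means of 254 ± 11.2 and 126 ± 14.8 TPM (SD, n = 5 and 6).

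Psmb8, on chromosome 17 (34197721 to 34201454, plus strand; overlapping the antisense gene Gm20496), encodes the replacement of the chymotrypsin-like Psmb5. Its levels were 1166, 1273 and 1102 TPM in the GFPpos sort of IL-12+IL-21 and 1298 and 1241 TPM in IL-12+IL-21 GFPneg, against 712, 931 and 875 TPM in the GFPpos sort of IL-1b+IL-6+IL-23 and 879, 951 and 819 TPM in IL-1b+IL-6+IL-23 GFPneg. Again the cultures did not overlap; the gap was smaller than for Psmb9 on the log scale. The log2 change was 0.51 ± 0.09 (adjusted p = 0.00192; 1216 ± 80.6 against 861 ± 86.5 TPM).

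Psmb10, on chromosome 8 (105935735 to 105938444, minus strand; overlapping the antisense gene Gm16156), encodes the replacement of the trypsin-like Psmb7 and was the inducible gene that did not pass. It had 54.2, 64.3 and 73.8 TPM in the GFPpos sort of IL-12+IL-21 and 63.6 and 74.6 TPM in IL-12+IL-21 GFPneg, against 46.9, 47.6 and 55.1 TPM in the GFPpos sort of IL-1b+IL-6+IL-23 and 46.3, 55.4 and 46.8 TPM in IL-1b+IL-6+IL-23 GFPneg. The lowest IL-12+IL-21 library lay within the range of the IL-1b+IL-6+IL-23 libraries. The log2 change was 0.41 ± 0.15 (adjusted p = 0.128).

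Psme1 and Psme2 encode the alpha and beta subunits of PA28, a cap that opens the core without ATP, and are neighbours on chromosome 14 (55578123 to 55581529, plus strand, and 55587441 to 55591113, minus strand). Psme1 overlaps Emc9. Psme1 had 742, 709 and 760.2 TPM in the GFPpos sort of IL-12+IL-21 and 859 and 800.04 TPM in IL-12+IL-21 GFPneg, against 424, 447 and 458.5 TPM in the GFPpos sort of IL-1b+IL-6+IL-23 and 547, 475 and 488 TPM in IL-1b+IL-6+IL-23 GFPneg. Psme2 had 1262, 1227 and 1169 TPM in the GFPpos sort of IL-12+IL-21 and 1108 and 1142 TPM in IL-12+IL-21 GFPneg, against 697, 764 and 859.8 TPM in the GFPpos sort of IL-1b+IL-6+IL-23 and 846, 852 and 1032 TPM in IL-1b+IL-6+IL-23 GFPneg. Neither gene overlapped between the cultures, and the 2 genes stood in different orders of sort within IL-12+IL-21. The log2 change was 0.73 ± 0.09 for Psme1 (adjusted p = 2.72e-05; 774 ± 57.8 against 473 ± 42.3 TPM) and 0.49 ± 0.10 for Psme2 (adjusted p = 0.00579; 1182 ± 62.6 against 842 ± 113 TPM). Psme2b, a near copy of Psme2 that the rule leaves out, was listed at 0.75 to 16.3 TPM and may share reads with it.

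All 6 calls stood in each of the 11 fits that left out 1 library. With median-ratio scaling Psmb8 and Psme2 no longer passed, at 0.40 (adjusted p = 0.13) and 0.38 (adjusted p = 0.16), and 487 genes passed as higher and 421 as lower, against 556 and 264. In the fit with all 21 libraries none of the members passed, although the log2 changes of Psmb9 and Psma6 were 1.07 and -1.63.

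A ratio within a library, of each inducible subunit to its constitutive counterpart, depends little on how the library is scaled. On the log2 scale of TPM + 1, Psmb9 over Psmb6 ran from -0.59 to -0.47 in IL-12+IL-21 GFPpos and was -0.64 in both IL-12+IL-21 GFPneg libraries, against -1.48 to -1.13 in the GFPpos sort of IL-1b+IL-6+IL-23 and -1.48 to -1.37 in the GFPneg sort of IL-1b+IL-6+IL-23. It ran from -1.08 to -0.78 in IL-12 GFPneg, was -2.23 in TGFb+IL-6 GFPpos and ran from -2.09 to -1.66 in TGFb+IL-6 GFPneg. Psmb6 thus exceeded Psmb9 in every library used, least with IL-12+IL-21 and most with TGFb+IL-6. Psmb8 over Psmb5 was above 0 in every library, at 1.09 to 1.58 with IL-12+IL-21, 0.73 to 0.95 with IL-12 alone, 0.75 to 1.00 for IL-1b+IL-6+IL-23 and 0.83 to 1.24 for TGFb+IL-6. Psmb10 over Psmb7 was below 0 in every library, at -1.65 to -1.18 with IL-12+IL-21, -2.62 to -1.74 with IL-12 alone, -2.08 to -1.74 for IL-1b+IL-6+IL-23 and -2.51 to -2.17 for TGFb+IL-6. These ratios show unequal change of the paired transcripts and not which of them changed; they were not tested.

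**Figure D2:**
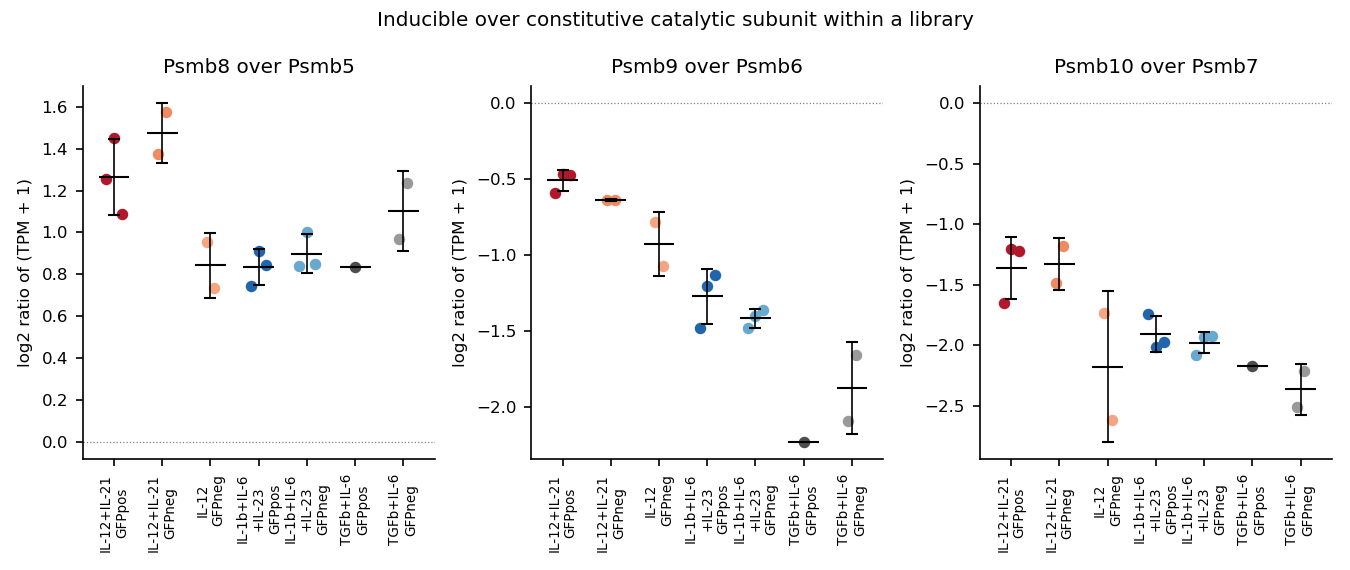
Log2 ratio, in TPM + 1, of each inducible catalytic subunit gene to its constitutive counterpart in each library used, by group. Psmb9 over Psmb6 is between -0.64 and -0.47 with IL-12+IL-21 and at -1.13 or lower in the Th17-type cultures.

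Psma6, on chromosome 12 (55384222 to 55418454, plus strand), encodes 1 of the 7 alpha subunits and went the other way. It had 247, 236 and 327 TPM in the GFPpos sort of IL-12+IL-21 and 259 and 244 TPM in IL-12+IL-21 GFPneg, against 763, 697 and 916 TPM in the GFPpos sort of IL-1b+IL-6+IL-23 and 858, 699.7 and 896 TPM in IL-1b+IL-6+IL-23 GFPneg. All 6 IL-1b+IL-6+IL-23 libraries were far above all others, since IL-12 GFPneg libraries had 383 and 412 TPM, the TGFb+IL-6 GFPpos library 232 TPM and TGFb+IL-6 GFPneg libraries 199.6 and 214 TPM. The log2 change with IL-12+IL-21 against IL-1b+IL-6+IL-23 was -1.62 ± 0.11 (adjusted p = 8.04e-08; 263 ± 36.9 against 805 ± 97.8 TPM). None of the 6 other alpha subunit genes passed, and their log2 changes ran from -0.06 (Psma7) to 0.20 (Psma2).

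Within a library, log2 of Psma6 over Psma7 ran from -0.97 to -0.39 with IL-12+IL-21, -0.93 to -0.76 with IL-12 alone, 0.36 to 0.92 for IL-1b+IL-6+IL-23 and -1.02 to -0.73 for TGFb+IL-6. Its 2 RefSeq starts, both shown above, lie within the gene's span, and the table does not separate transcripts.

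Psmd8, on chromosome 7 (29174188 to 29180701, minus strand), encodes a lid subunit of the 19S cap and was the most abundant 19S gene. It had 297, 270.2 and 323 TPM in the GFPpos sort of IL-12+IL-21 and 290.4 and 228 TPM in IL-12+IL-21 GFPneg, against 413, 422 and 553 TPM in the GFPpos sort of IL-1b+IL-6+IL-23 and 409, 351 and 418 TPM in IL-1b+IL-6+IL-23 GFPneg. The cultures did not overlap. The log2 change was -0.62 ± 0.11 (adjusted p = 0.00147; 282 ± 35.4 against 428 ± 66.5 TPM), while the other 10 non-ATPase subunit genes ran from -0.13 (Psmd2) to 0.23 (Psmd1). Psmd8 over Psmd7, both lid genes, was 0.92 to 1.26 on the log2 scale with IL-12+IL-21, against 1.36 to 2.05 with IL-1b+IL-6+IL-23. This ratio was 0.86 to 0.90 with IL-12 alone and 1.18 to 1.24 in TGFb+IL-6 GFPneg. In the TGFb+IL-6 GFPpos library it was 1.68, within the IL-1b+IL-6+IL-23 range.

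**Figure D3:**
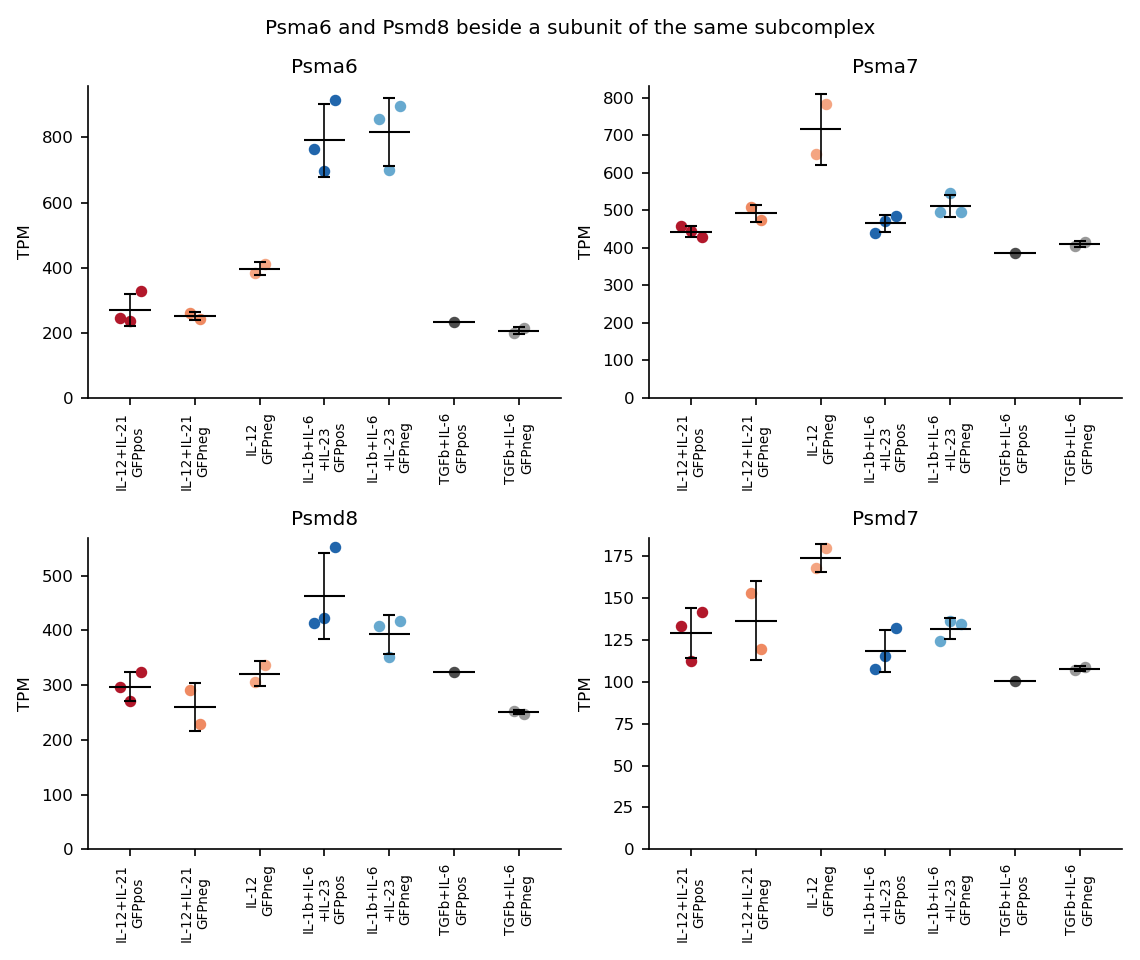
TPM of Psma6 and Psmd8, each beside a subunit gene of the same ring or cap (Psma7, Psmd7), in each library used, by group (points, libraries; bars, mean ± SD where a group has at least 2 libraries). Psma6 is at 697 to 916 TPM in the IL-1b+IL-6+IL-23 libraries and at 199.6 to 412 TPM in all others, while Psma7 is highest in IL-12 GFPneg.

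Lists of related genes were read beside the members in the same comparison. Of 22 partner genes of the proteasome (assembly factors, shuttles and regulators), 15 were tested and 1 passed, Uchl5, which encodes a deubiquitinase of the 19S cap (log2 change 0.77 ± 0.15, adjusted p = 0.00374). Of 15 genes of the interferon gamma pathway and class I processing, 7 passed as higher and 1 as lower. They included Ifng, the gene of interferon gamma (7.66 ± 0.23, adjusted p = 1.94e-12), and the interferon response factors Irf8 (3.98 ± 0.27, adjusted p = 5.57e-08) and Irf1 (2.17 ± 0.19, adjusted p = 1.01e-06). Ifng had 131 to 450.3 TPM in IL-12+IL-21 libraries, against 0 to 0.90 TPM in the IL-1b+IL-6+IL-23 libraries, and Irf1 had 66.7 to 95.4 TPM, against 10.9 to 22.6 TPM. The sum of the CD4 T cell markers also moved with the cultures, at 1767 to 2300 TPM with IL-12+IL-21 against 1212 to 1440 TPM under IL-1b+IL-6+IL-23. Of these markers Cd2, Cd3d and Cd3g passed as higher. The others overlapped between the cultures, at 39.3 to 76.2 against 46.5 to 72.4 TPM for Cd3e, 74.2 to 153.6 against 70.7 to 101.5 TPM for Cd4 and 280.7 to 343.2 against 224 to 332.3 TPM for Trac. The part of any of the genes listed here in the proteasome differences was not tested. None of 7 ubiquitin and E1 genes passed by limma, also at an unadjusted p under 0.05.

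Split by sort, the comparisons used subsets of the same libraries and are no independent support. Among GFPpos cells, 3 libraries against 3, 4.96% of genes passed (3.59% higher, 1.38% lower), and the members that passed were Psmb8, Psmb9, Psme1 and Psme2 as higher and Psma6 and Psmd8 as lower. The log2 changes were 1.03 ± 0.17 for Psmb9 (adjusted p = 0.00131), 0.73 ± 0.11 for Psme1 (adjusted p = 0.000735), 0.66 ± 0.14 for Psme2 (adjusted p = 0.00771), 0.50 ± 0.13 for Psmb8 (adjusted p = 0.0286) and 0.35 ± 0.20 for Psmb10 (adjusted p = 0.448). Psma6 was at -1.55 ± 0.15 (adjusted p = 5.68e-06) and Psmd8 at -0.63 ± 0.15 (adjusted p = 0.0169). The call of Psmb8 was lost without IL-12+IL-21 GFPpos replicate 1 (adjusted p = 0.087) or 2 (adjusted p = 0.0921) or without IL-1b+IL-6+IL-23 GFPpos replicate 1 (adjusted p = 0.143), and that of Psmd8 without IL-12+IL-21 GFPpos replicate 1 (adjusted p = 0.0596) or 2 (adjusted p = 0.0643) or IL-1b+IL-6+IL-23 GFPpos replicate 3 (adjusted p = 0.0891). The median of all genes was 0.15 here and -0.02 with median-ratio scaling, under which 254 genes passed as higher and 227 as lower, against 344 and 132, and among the members Psmb9, Psma6 and Psmd8 still passed.

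Among GFPneg cells, 2 libraries against 3, 3.41% of genes passed (2.16% higher, 1.25% lower). Psmb9 and Psme1 passed as higher, at 0.98 ± 0.19 (adjusted p = 0.00745) and 0.72 ± 0.13 (adjusted p = 0.00343), and Psma6 as lower, at -1.69 ± 0.17 (adjusted p = 1.6e-05). Psmb8 missed the threshold at 0.53 ± 0.14 (adjusted p = 0.0528), as did Psmb10 at 0.47 ± 0.23 (adjusted p = 0.409) and Psme2 at 0.31 ± 0.15 (adjusted p = 0.43). Psmb8 passed with a minimum of 5 TPM (adjusted p = 0.0392) and with quantile normalization (adjusted p = 0.0214), under which Psme2 also passed (adjusted p = 0.0465). All 5 inducible genes had no overlap between the groups, as had 13.6% of all genes in the same direction. The call of Psmb9 was lost without IL-12+IL-21 GFPneg replicate 1 (adjusted p = 0.0619) or 2 (adjusted p = 0.0836), and that of Psme1 without replicate 1 (adjusted p = 0.0616). In both sorts the list genes with the smallest p were Ifng (8.18 in GFPpos and 7.14 in GFPneg cells), Irf8 (4.08 and 3.87), Irf1 (2.28 and 2.06) and Ifngr1, a chain of the interferon gamma receptor (2.16 and 1.92), and all of these passed. Of the 15 interferon and class I genes, 6 in GFPpos and 5 in GFPneg cells passed as higher and 1 in each, Ifngr2, as lower. Of the partner genes Uchl5 passed in GFPneg cells (0.87 ± 0.23, adjusted p = 0.049), where 1 of 15 had an unadjusted p under 0.05, and none did in GFPpos cells, also with 1 at that level.

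IL-12 alone was set against IL-1b+IL-6+IL-23 in GFPneg cells, 2 libraries against 3. Psmb9 and Psme1 were again higher, and with IL-12 alone so were 3 core genes outside the inducible set, Psma3 and Psma7 of the alpha ring and Psmb6 of the beta ring. In all 7.01% of genes passed (4.30% higher, 2.71% lower). Of the 42 others 3 passed as higher and 1, Psma6, as lower. Their median log2 change was 0.27, against 0.09 for all genes, and 23 of the 42 had no overlap in the higher direction, against 23.6% of all genes. Median-ratio scaling put these medians at 0.14 and -0.00089, and 334 genes passed as higher and 395 as lower, against 412 and 260. Among the members only Psmb9 and Psma6 still passed by limma with this scaling. Psme1 (adjusted p = 0.0924), Psma3 (0.174), Psmb6 (0.206) and Psma7 (0.338) did not. Psme1, Psmb6 and Psma7 also missed the threshold with quantile normalization (adjusted p = 0.0646, 0.13 and 0.239).

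Psmb9 had 299 and 234 TPM in IL-12 GFPneg libraries, and its log2 change was 1.08 ± 0.19 (adjusted p = 0.00209). Psme1 had 844 and 727 TPM in IL-12 GFPneg, at 0.64 ± 0.13 (adjusted p = 0.00525), a call lost without IL-12 GFPneg replicate 2 (adjusted p = 0.0855). Psmb8 had 1099 and 1087 TPM, at 0.31 ± 0.14 (adjusted p = 0.219). Psmb10 had 69.4 and 40.1 TPM, 1 above and 1 below the IL-1b+IL-6+IL-23 GFPneg range, and Psme2 had 939.7 and 932 TPM, within that range; their log2 changes were 0.10 ± 0.23 (adjusted p = 0.854) and 0.05 ± 0.15 (adjusted p = 0.906), and both turned negative with median-ratio scaling (-0.035 and -0.088) and with quantile normalization (-0.10 and -0.14).

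Of the others, Psmb6 had 513 and 493.5 TPM in IL-12 GFPneg, against 346, 347 and 311 TPM in IL-1b+IL-6+IL-23 GFPneg (log2 change 0.59 ± 0.14, adjusted p = 0.0152). Psma7 had 649 and 783 TPM, against 495, 545 and 495 TPM (0.48 ± 0.13, adjusted p = 0.0304). Psma3 had 297 and 360.4 TPM, against 198, 237 and 200.3 TPM (0.63 ± 0.16, adjusted p = 0.026). The groups of none of these 3 genes overlapped, but each call rested on single libraries. Psmb6 was lost without IL-12 GFPneg replicate 2 (adjusted p = 0.107) or 3 (adjusted p = 0.0938) or IL-1b+IL-6+IL-23 GFPneg replicate 3 (adjusted p = 0.0555). Without IL-12 GFPneg replicate 3, Psma7 and Psma3 had adjusted p-values of 0.316 and 0.265, and both were also lost without IL-1b+IL-6+IL-23 GFPneg replicate 1 (0.0712 and 0.0682) or 3 (0.0854 and 0.0746). Psma6 was at -1.03 ± 0.17 (adjusted p = 0.0011), with IL-12 GFPneg between the other 2 cultures compared so far.

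Beside these values, the erythroid and neutrophil markers summed to 20.6 to 42.6 TPM in IL-12 GFPneg, against 5.20 to 6.26 TPM in the GFPneg sort of IL-1b+IL-6+IL-23. Ly6g carried this sum (log2 change 2.19 ± 0.51, adjusted p = 0.016), while the defining genes S100a8, S100a9 and Hbb-bs were listed at 0 in every library used; its part in the result was not tested. Of the lists, 4 interferon and class I genes passed as higher and 1 as lower, led by Ifng (10.02 ± 0.34, adjusted p = 4.34e-11), Irf8 (6.04 ± 0.40, adjusted p = 8.41e-08), Ifngr2 (-2.33 ± 0.28, adjusted p = 6.15e-05) and Ifngr1 (2.06 ± 0.28, adjusted p = 0.000199). Uchl5 was the partner gene that passed (1.29 ± 0.23, adjusted p = 0.00219), and the E1 gene Uba7, which starts conjugation of the ubiquitin-like protein ISG15, passed as lower (-1.53 ± 0.28, adjusted p = 0.00261).

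Adding IL-21 to IL-12 was compared in GFPneg cells, 2 libraries against 2, where 0.761% of genes passed. None of the 47 members passed by limma, while 0 of 5 inducible genes and 11 of 42 others had an unadjusted p under 0.05, as had 1311 of the 9592 genes tested. The smallest p-values were those of Psma7 (508 and 476 TPM with IL-12+IL-21, against 649 and 783 TPM with IL-12 alone; log2 change -0.54 ± 0.14, adjusted p = 0.0923) and Psma6 (259 and 244 TPM, against 383 and 412 TPM; -0.66 ± 0.19, adjusted p = 0.12). Of the 42 others 38 were below 0, with a median of -0.34 against -0.09 for all genes, and 24 had no overlap in the lower direction, against 27.8% of all genes. With median-ratio scaling the 2 medians were -0.20 and 0.01.

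The inducible genes stood otherwise in this comparison. Their log2 changes were 0.38 ± 0.25 for Psmb10 (adjusted p = 0.557), 0.27 ± 0.17 for Psme2 (adjusted p = 0.531), 0.22 ± 0.15 for Psmb8 (adjusted p = 0.595), 0.08 ± 0.14 for Psme1 (adjusted p = 0.865) and -0.10 ± 0.21 for Psmb9 (adjusted p = 0.898), of which Psmb9 turned positive with median-ratio scaling (0.035) and quantile normalization (0.11). Psmb8 and Psme2 had no overlap in the higher direction, as had 14.6% of all genes, at 1298 and 1241 against 1099 and 1087 TPM for Psmb8 and 1108 and 1142 against 939.7 and 932 TPM for Psme2. Ifng and Irf8 were the list genes that passed, both as lower with IL-21, at -2.88 ± 0.37 (adjusted p = 0.00101) and -2.17 ± 0.44 (adjusted p = 0.0317). Ifng had 231 and 131 TPM with IL-12+IL-21, against 1121 and 1474 TPM with IL-12 alone.

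TGFb+IL-6, the other Th17-type culture, held the lowest unscaled group mean of each inducible gene, 4 in GFPneg cells and 1 in the lone GFPpos library. The share of all genes lowest there was not counted. IL-12+IL-21 GFPneg was set against TGFb+IL-6 GFPneg, 2 libraries against 2, where 6.82% of genes passed (4.81% higher, 2.01% lower). All 5 inducible genes passed as higher, with a median log2 change of 1.03, and of the others 1 passed, Psmb7, with a median over the 42 of 0.23 against 0.21 for all genes. Psmb10 differed the most, with 63.6 and 74.6 TPM in IL-12+IL-21 GFPneg against 19.2 and 23.4 TPM in TGFb+IL-6 GFPneg (1.65 ± 0.25, adjusted p = 0.000407). Psmb9 had 242 and 251 TPM, against 75.9 and 116 TPM (1.38 ± 0.21, adjusted p = 0.000471). Both TGFb+IL-6 libraries were below both IL-12+IL-21 libraries for each of the 5 genes, as they were for 36.6% of all genes.

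Psme1 had 859 and 800.04 TPM in IL-12+IL-21 GFPneg, against 377 and 436 TPM in TGFb+IL-6 GFPneg (1.03 ± 0.14, adjusted p = 0.000169). Psme2 had 1108 and 1142 TPM, against 479 and 685 TPM (0.97 ± 0.17, adjusted p = 0.00143). Psmb8 had 1298 and 1241 TPM, against 709.8 and 872 TPM (0.69 ± 0.15, adjusted p = 0.011), a call lost without IL-12+IL-21 GFPneg replicate 1 (adjusted p = 0.0949) or TGFb+IL-6 GFPneg replicate 1 (adjusted p = 0.115). Psmb7, the constitutive counterpart of Psmb10, had 179.7 and 170.03 TPM, against 114 and 112 TPM (0.62 ± 0.17, adjusted p = 0.0413), and its call was lost without any 1 of the 4 libraries (adjusted p from 0.107 to 0.231).

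Ribosomal genes took 33.4% to 38.8% of the TPM in IL-12+IL-21 GFPneg and 41.5% to 42.0% in TGFb+IL-6 GFPneg; their part in these differences was not tested. Median-ratio scaling moved the median of all genes to -0.01 and that of the 42 others to -0.06; Psmb10, Psmb9 and Psme1 still passed, while Psme2 (0.67), Psmb8 (0.38) and Psmb7 (0.32) did not, and 365 genes passed as higher and 405 as lower, against 461 and 193. Of the 15 interferon and class I genes 9 passed as higher and 1 as lower. They were led by Ifng (7.45 ± 0.37, adjusted p = 3.87e-09), Irf1 (2.90 ± 0.31, adjusted p = 1.29e-05), the peptide-trimming gene Erap1 (2.22 ± 0.34, adjusted p = 0.000484) and the peptide transporter gene Tap2 (1.88 ± 0.30, adjusted p = 0.000635). Of the ubiquitin and E1 genes Uba7 passed (1.63 ± 0.31, adjusted p = 0.00308), and of the partner genes none did by limma, with 3 at an unadjusted p under 0.05.

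The 2 Th17-type cultures were compared in GFPneg cells, IL-1b+IL-6+IL-23 against TGFb+IL-6, 3 libraries against 2. Here 15.4% of genes passed (10.6% higher, 4.83% lower). Of the inducible genes Psmb10 and Psme2 passed as higher, and of the others 5 did (Psma6, Psmd5, Psmb7, Psmc1 and Psmd8), while 0 members passed as lower. The medians were 0.40 for the inducible genes, 0.28 for the others and 0.23 for all genes.

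Psma6 had 858, 699.7 and 896 TPM in IL-1b+IL-6+IL-23 GFPneg, against 199.6 and 214 TPM in TGFb+IL-6 GFPneg, the widest gap of any member here (log2 change 1.97 ± 0.17, adjusted p = 9.6e-07; 818 ± 104 against 207 ± 9.88 TPM). Psmb10 had 46.3, 55.4 and 46.8 TPM, against 19.2 and 23.4 TPM (1.18 ± 0.23, adjusted p = 0.00202). Psme2 had 846, 852 and 1032 TPM, against 479 and 685 TPM (0.66 ± 0.15, adjusted p = 0.00819), a call lost without TGFb+IL-6 GFPneg replicate 1 (adjusted p = 0.15). In none of the 3 genes did the groups overlap, as held for 31.2% of all genes in that direction. Psmb9 (0.40 ± 0.19, adjusted p = 0.18), Psme1 (0.31 ± 0.13, adjusted p = 0.118) and Psmb8 (0.16 ± 0.14, adjusted p = 0.479) did not pass, and Psmb8 turned negative with median-ratio scaling (-0.14).

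Psmd5, a chaperone of 19S assembly, had 29.9, 28.3 and 28.1 TPM in IL-1b+IL-6+IL-23 GFPneg, against 15.7 and 16.1 TPM in TGFb+IL-6 GFPneg (0.82 ± 0.20, adjusted p = 0.0132). Psmb7 had 199, 215 and 181 TPM, against 114 and 112 TPM (0.80 ± 0.16, adjusted p = 0.00275). Psmc1, a 19S ATPase, had 144, 106 and 139 TPM, against 81.4 and 77.2 TPM (0.69 ± 0.17, adjusted p = 0.0133). These groups did not overlap either. Psmd8 was at 0.64 ± 0.16 (adjusted p = 0.0146). The calls of Psmd5 and Psmc1 were lost without TGFb+IL-6 GFPneg replicate 1 (adjusted p = 0.0752 and 0.0581) or 2 (0.0828 and 0.114), and that of Psmd8 without either of these or IL-1b+IL-6+IL-23 GFPneg replicate 3 (highest adjusted p = 0.108).

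Ribosomal genes took 31.3% to 37.2% of the TPM in IL-1b+IL-6+IL-23 GFPneg and 41.5% to 42.0% in TGFb+IL-6 GFPneg, and their part was not tested. Median-ratio scaling moved the medians of all genes and of the 42 others to 0.01 and -0.01, 729 genes passed as higher and 835 as lower, against 1015 and 463, and among the members Psma6 and Psmb10 still passed. Of the partner genes, the core assembly factor Pomp (0.43 ± 0.13, adjusted p = 0.0362) and Nfe2l1, which encodes a transcription factor of proteasome genes (0.98 ± 0.30, adjusted p = 0.0387), passed as higher. Of the interferon and class I genes 5 passed as higher and 2 as lower, led by Ifngr1 (-2.83 ± 0.28, adjusted p = 4.49e-06), Tap1 (1.52 ± 0.26, adjusted p = 0.000824), Erap1 (1.56 ± 0.31, adjusted p = 0.00264) and Irf8 (-2.004 ± 0.40, adjusted p = 0.00287). Ifng was listed at 0 to 0.90 TPM in these libraries. Uba7 passed as higher (2.05 ± 0.28, adjusted p = 0.000103).

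**Figure D4:**
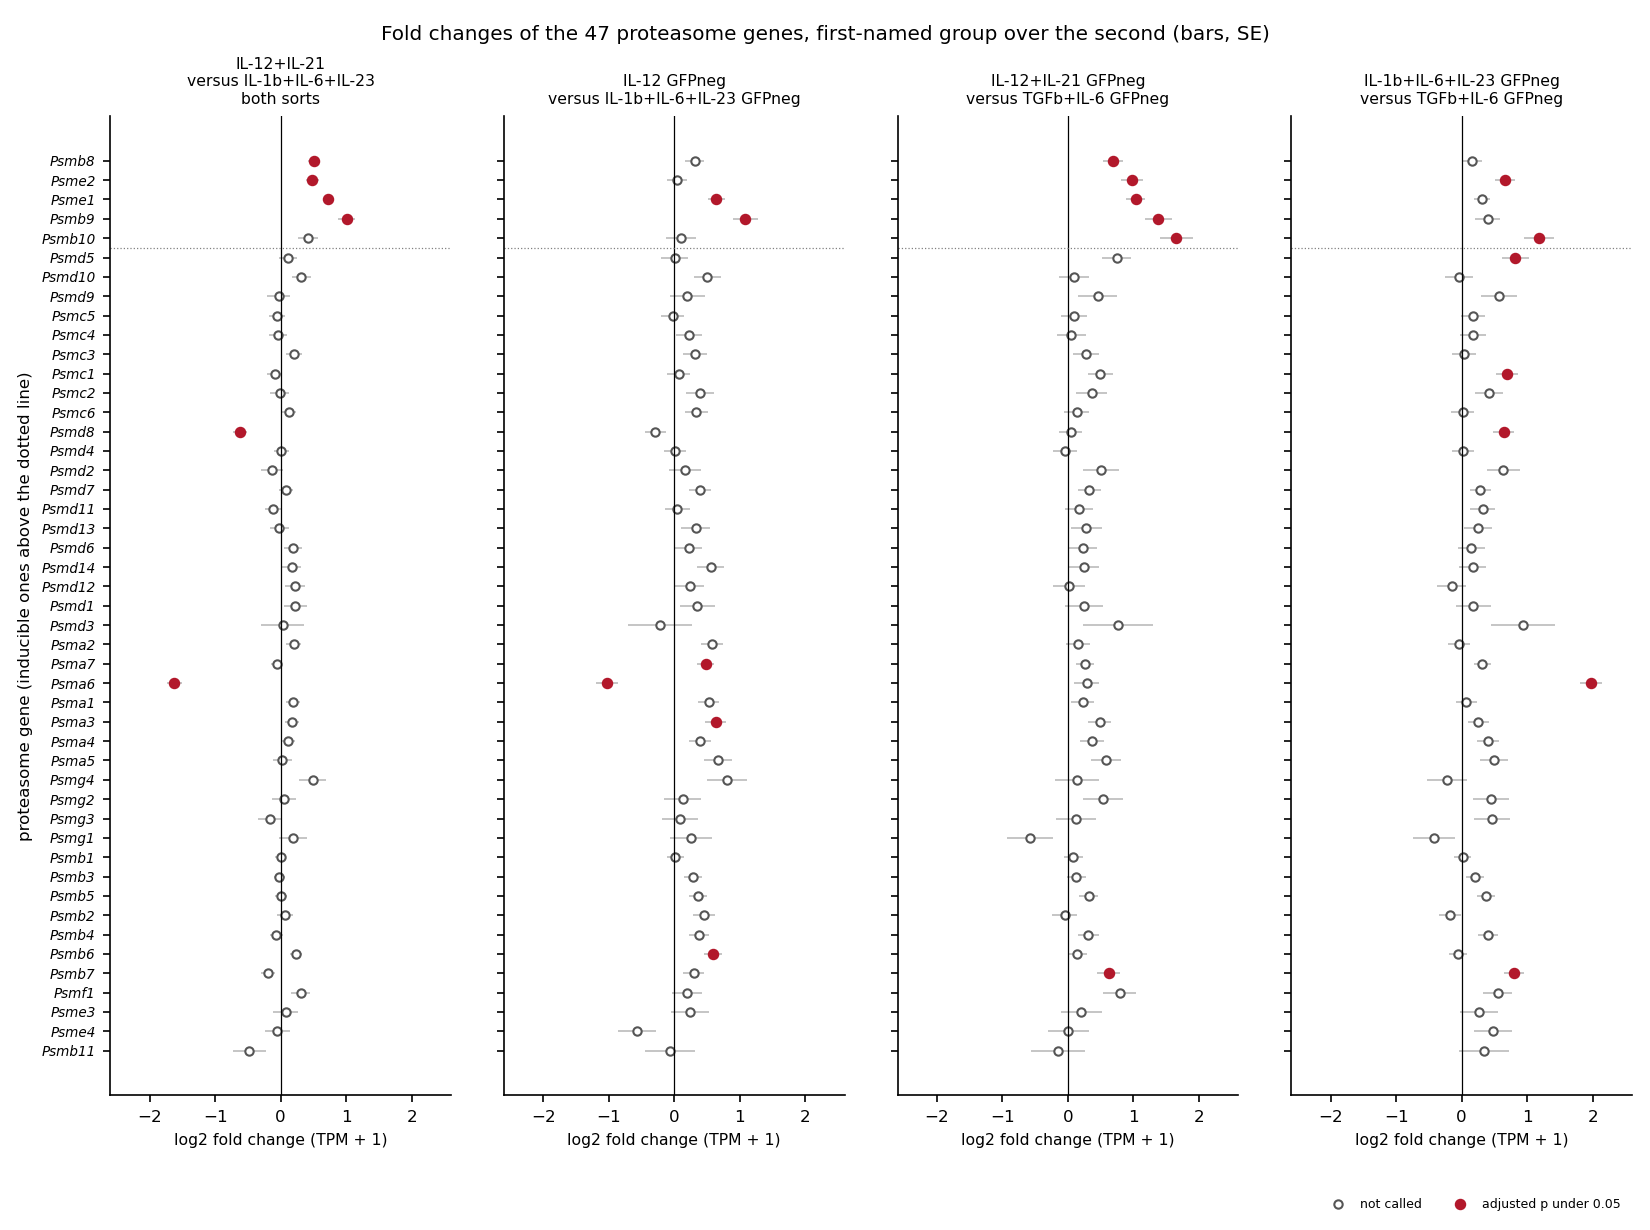
Log2 change (TPM + 1 scale) with its standard error for all 47 genes in 4 comparisons of cultures, the inducible genes above the dotted line; filled red points have an adjusted p under 0.05. In IL-12+IL-21 against IL-1b+IL-6+IL-23 the filled points among the 42 others are Psma6 at -1.62 and Psmd8 at -0.62, and the rest lie between -0.48 (Psmb11) and 0.49 (Psmg4).

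The reporter sorts asked whether cells with higher and lower eGFP from the Il23r locus differ within a culture. In the 3 cultures with both sorts, Il23r RNA was lower in the GFPneg libraries used, but was not absent from them. Il23r was listed at 1.50 and 0 TPM in IL-12 GFPneg replicates 2 and 3, which had no GFPpos counterpart. Its range for IL-12+IL-21 was 24.2 to 36.4 TPM in GFPpos and 3.04 to 6.36 TPM in GFPneg libraries. For IL-1b+IL-6+IL-23 these ranges were 21.7 to 38.9 and 6.02 to 7.56 TPM. The lone GFPpos library of TGFb+IL-6 held only 3.57 TPM of Il23r, and its GFPneg counterparts held 0.73 to 0.87 TPM. GFPpos against GFPneg cells gave 0 members that passed by limma in each of 3 cultures. In the table, 0.156% of genes passed with IL-12+IL-21 (3 libraries against 2), 0.427% with IL-1b+IL-6+IL-23 (3 against 3) and 0.323% with TGFb+IL-6 (1 against 2, where the lone library is assumed to vary like the other groups). The counts behind them were 15, 41 and 31 genes, and came to 0 to 3, 17 to 27 and 8 with 1 library left out. At an unadjusted p under 0.05 there were 0 inducible genes in any culture, and 3, 0 and 1 of the 42 others, against 1392, 809 and 1617 of the 9592 genes tested. The log2 changes of the inducible genes ran from -0.17 (Psme1) to 0.12 (Psme2) with IL-12+IL-21, from -0.23 (Psme2) to 0.01 and 0.02 (Psmb10 and Psmb9) under IL-1b+IL-6+IL-23, and from -0.41 (Psmb9) to 0.40 (Psmb10) with TGFb+IL-6; several of these signs turned with the scaling of the libraries.

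The member with the smallest p with IL-12+IL-21 was Psmd10, which encodes gankyrin, a chaperone of 19S assembly. It had 31.01, 32.5 and 39.2 TPM in GFPpos, against 21.1 and 19.6 TPM in GFPneg (log2 change 0.72 ± 0.21, adjusted p = 0.143). The groups did not overlap, as held for 26.3% of all genes in that direction, and the median of all genes was 0.24, and 0.01 with median-ratio scaling. With IL-1b+IL-6+IL-23 it had 23.4, 19.2 and 29.8 TPM in GFPpos, against 18.5, 18.5 and 18.2 TPM in GFPneg (0.35 ± 0.19, adjusted p = 0.654). With TGFb+IL-6 it had 28.4 TPM in GFPpos, against 20.6 and 17.6 TPM in GFPneg.

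Other members with the smallest p were Psme4 with IL-12+IL-21 (0.64 ± 0.29, adjusted p = 0.331) and Psmd9 (0.80 ± 0.36, adjusted p = 0.283) and Psmb2 (-0.49 ± 0.23, adjusted p = 0.297) with TGFb+IL-6. Psme4 was near the minimum, at 1.34, 0.93 and 1.68 TPM in GFPpos against 0.59 and 0.37 TPM in GFPneg. Psma1 was the other such member with IL-1b+IL-6+IL-23, at 205, 252 and 253 TPM in GFPpos against 271, 298 and 262 TPM in GFPneg. The reporter effect with IL-12+IL-21, less that with IL-1b+IL-6+IL-23, was tested as an interaction, and no gene of the table passed by limma, with 474 at an unadjusted p under 0.05. For the inducible genes this difference ran from -0.12 (Psmb10) to 0.35 (Psme2), and the member with the smallest p was Psme4 (0.85 ± 0.39, adjusted p = 0.977). Next was Psmg1, at 20.4, 20.8 and 17.5 TPM in GFPpos against 13.8 and 9.88 TPM in GFPneg with IL-12+IL-21. With IL-1b+IL-6+IL-23 Psmg1 was at 16.8, 8.16 and 16.4 TPM against 10.2, 15.6 and 14.2 TPM.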

How the data were processed

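RNA of sorted mouse CD4 T cells was measured in 21 libraries, 3 in each of 7 groups. The authors deposited 1 table of TPM values. The submitters' processing notes name RSEM 1.2.31, Bowtie2 2.2.9, Trimmomatic 0.32 and the build GRCm38; annotation, filters and strand use are not given in the sources used here. Columns were matched to samples by name. TPM are shares of a library, and a listed 0 can be a failed estimate.

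The members and lists were chosen with earlier results of these data known. Genes with at least 1 TPM in at least 3 of the 16 libraries used were tested, 9592 in all, which included all 47 members. The test was limma 3.58.1 (R 4.3.3), fitted to log2(TPM + 1) by group without a block, with a trend in the prior variance and Benjamini-Hochberg adjustment in each of 10 comparisons and 1 interaction. All groups shared 1 estimate of the spread. This scale understates changes of low genes. Comparisons share libraries, so their results are not independent. Whether replicates were separate cultures or mice is not stated in the labels. Nor is it stated whether the GFPpos and GFPneg libraries of a replicate number came from the same culture. The p-values reflect only how these libraries vary, which may be technical. Overlapping and antisense genes may share reads. Members named are the 5 inducible genes, up to 4 other called genes in each direction with the largest change (Psmd8 was added to these in 1 comparison), and, where none passed, the 2 with the smallest p; of the lists, up to 4 called genes with the smallest p, with Cd2, Cd3d, Cd3g and Ly6g added after their values were seen.

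Alternatives were pseudocounts of 0.1 and 5, a minimum of 5 TPM or no filter, median-ratio and quantile scaling, all 21 libraries, 18 libraries with at least 2000 genes, only the libraries compared, a replicate block, array weights, no trend and each library left out. Motifs were searched in 300-base RefSeq windows (GRCm38.p6), and gene places are from GENCODE M21. The scripts (Python 3.11.15, pandas 2.3.3, numpy 2.4.6) were tested on simulated data.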

Additional observations from a re-analysis of the deposited data

How the results depend on the processing

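With 18 libraries (at least 2000 genes at 1 TPM, chosen after seeing the data) and with all 21, 0 members passed in any of the 6 comparisons of cultures in which members passed with 16. None of the 16 had over 50% ribosomal TPM, so leaving out such libraries from these changed nothing. In IL-12 against IL-1b+IL-6+IL-23 GFPneg both gave -0.24 for Psmb8, -0.237 for Psme1, -0.673 for Psme2, -1.197 for Psma3 and -0.064 for Psma7. With 18, Psmb9 was 0.63 for IL-12+IL-21 against IL-12, and the TGFb+IL-6 reporter change was -0.516 for Psmb8, -0.66 for Psme1 and -0.658 for Psme2. With all 21, Psmb9 was 0.756 for IL-12+IL-21 against IL-12, Psmb8 -0.518 for IL-1b+IL-6+IL-23 against TGFb+IL-6 and -0.783 for the TGFb+IL-6 reporter, the IL-12+IL-21 reporter change -0.053 for Psmb9, 0.068 for Psme1 and -0.149 for Psme2, and the interaction -0.075 for Psmb9. Summed inducible TPM were then 3797 in IL-12+IL-21 GFPneg, 2364 in IL-12 GFPneg, 1993 in TGFb+IL-6 GFPpos and 2346 in TGFb+IL-6 GFPneg, and those of the others 7127 in IL-12 GFPneg, 5229 in TGFb+IL-6 GFPpos and 5993.5 in TGFb+IL-6 GFPneg.

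With median-ratio scaling 2 inducible genes passed in both sorts, 3 members (1 inducible) in GFPpos, 2 (1) in IL-12 against IL-1b+IL-6+IL-23, 3 (3) in IL-12+IL-21 against TGFb+IL-6 and 2 (1) for IL-1b+IL-6+IL-23 against TGFb+IL-6. Log2 changes that turned were -0.035 and -0.088 for Psmb10 and Psme2 in IL-12 against IL-1b+IL-6+IL-23, 0.035 for Psmb9 in IL-12+IL-21 against IL-12, -0.142 for Psmb8 in IL-1b+IL-6+IL-23 against TGFb+IL-6, and the reporter changes of Psmb9 and Psme2 (-0.214 and -0.172) with IL-12+IL-21, Psmb9 and Psmb10 (-0.046 and -0.055) under IL-1b+IL-6+IL-23, Psmb8, Psmb10, Psme1 and Psme2 (-0.416, -0.064, -0.275 and -0.188) with TGFb+IL-6, and Psmb9 and Psme1 (-0.168 and -0.21) in the interaction. Summed inducible values became 2942 in IL-12+IL-21 GFPpos, 3614.5 in IL-12+IL-21 GFPneg, 2908.5 in IL-12 GFPneg, 2521 in IL-1b+IL-6+IL-23 GFPneg, 1887 in TGFb+IL-6 GFPpos and 2423 in TGFb+IL-6 GFPneg, and those of the others 6276 in IL-12+IL-21 GFPpos, 8991 in IL-12 GFPneg, 8388 in IL-1b+IL-6+IL-23 GFPneg, 6051 in TGFb+IL-6 GFPpos and 8393 in TGFb+IL-6 GFPneg. The reporter comparisons passed 3 genes higher and 6 lower with IL-12+IL-21 (11 and 4 unscaled), 26 and 13 under IL-1b+IL-6+IL-23 (33 and 8) and 7 and 12 with TGFb+IL-6 (25 and 6), and IL-12+IL-21 against IL-12 38 and 23 (30 and 43). The medians of all genes shifted to 0 from 0.37 in the TGFb+IL-6 reporter comparison and to -0.02 from 0.16 in the interaction.

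With quantile normalization 6 members (4 inducible) passed in GFPneg and 1 inducible gene in IL-12 against IL-1b+IL-6+IL-23, where Psmb10 and Psme2 were -0.10 and -0.144; Psmb9 was 0.114 in IL-12+IL-21 against IL-12, -0.039 for the IL-12+IL-21 reporter and -0.131 in the interaction, Psmb10 -0.001 for the IL-1b+IL-6+IL-23 reporter, and Psme1 -0.048 in the interaction. A minimum of 5 TPM gave 5 members in GFPneg, and no filter 1 in IL-12+IL-21 against IL-12. Without a trend 3 (2 inducible) passed in GFPpos and 2 (1) in IL-12 against IL-1b+IL-6+IL-23. With only the libraries compared there were 1 inducible gene in GFPneg, 2 members (1) in IL-12 against IL-1b+IL-6+IL-23, 2 (2) in IL-12+IL-21 against TGFb+IL-6 and 1 inducible gene for IL-1b+IL-6+IL-23 against TGFb+IL-6. Array weights turned Psmb9 (-0.024) and Psmb10 (-0.02) for the IL-1b+IL-6+IL-23 reporter and Psme1 (-0.013) in the interaction. Pseudocounts of 0.1 and 5 moved no count of members by over 1.5 times. Over all genes, a pseudocount of 5 gave 31 genes for the IL-12+IL-21 reporter (15 in the report) and 59 for that of TGFb+IL-6 (31), a pseudocount of 0.1 gave 23 for that of IL-1b+IL-6+IL-23 (41), array weights gave 130, 74 and 52 for the IL-12+IL-21, TGFb+IL-6 and IL-1b+IL-6+IL-23 reporters, and no filter gave 250 for that of TGFb+IL-6.

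Replicate numbers were not taken to pair the libraries, although correlations of deviations from the group means leaned toward pairing. Of 31 same-numbered pairs 8 correlated over 0.1 (median 0.0425), against 1 of 62 pairs with different numbers (median -0.0274). In a group of 2 libraries the deviations mirror each other, so these pairs are not independent. Some groups did deviate together, as the GFPneg sorts of IL-1b+IL-6+IL-23 with IL-12+IL-21 (0.202 and 0.125), so pairing cannot be dismissed. Same-numbered libraries of IL-1b+IL-6+IL-23 GFPneg and IL-12+IL-21 GFPpos, both groups of 3, correlated at 0.251, 0.157 and 0.265. Between these groups, pairs with different numbers ran from -0.218 to -0.0424. Same-numbered pairs of other groups went as low as -0.0861. A replicate block gave 5 members in GFPneg, against 3, Psmb8 among them (0.512, adjusted p = 0.0429), 135 genes in IL-12+IL-21 against IL-12, against 73, and -0.009 for Psme2 in IL-12 against IL-1b+IL-6+IL-23. With 1 library left out, members that passed ranged from 1 to 3 (inducible 0 to 2) in GFPneg, 3 to 6 (1 to 2) in IL-12 against IL-1b+IL-6+IL-23 and 3 to 8 (1 to 2) for IL-1b+IL-6+IL-23 against TGFb+IL-6. Counts of all genes also fell, to 152 to 266 in GFPneg (327 with all 16), 298 to 560 in IL-12 against IL-1b+IL-6+IL-23 (672), 14 to 71 in IL-12+IL-21 against IL-12 (73), 308 to 488 in IL-12+IL-21 against TGFb+IL-6 (654), 667 to 1410 for IL-1b+IL-6+IL-23 against TGFb+IL-6 (1478) and 532 to 790 in both sorts (820). Ranges that crossed 0 were -0.291 to 0.485 for Psmb10 and -0.003 to 0.14 for Psme2 in IL-12 against IL-1b+IL-6+IL-23. In IL-12+IL-21 against IL-12 they were -0.276 to 0.077 for Psmb9, -0.011 to 0.764 for Psmb10 and -0.026 to 0.189 for Psme1. In the reporter comparisons they were -0.226 to 0.001 for Psmb10 with IL-12+IL-21, -0.159 to 0.034 for Psmb8, -0.118 to 0.096 for Psmb9 and -0.06 to 0.094 for Psmb10 under IL-1b+IL-6+IL-23, and -0.083 to 0.214 for Psmb8 with TGFb+IL-6. In the interaction they were -0.141 to 0.052 for Psmb8, -0.023 to 0.191 for Psmb9 and -0.052 to 0.061 for Psme1. The causes of these shifts were not tested, and with 1 to 3 libraries a group the precision is limited by their number.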
